A study of Mus musculus with 5 samples.

Results

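H3K4me1 domains at promoters in IL-2-activated NKC were taken from the deposited list of H3K4me1 intervals. Intervals separated by a gap of less than 1 kb were joined, and a joined domain was kept when it was narrower than 4 kb and its centre lay within 1 kb of any transcript start of the GENCODE M1 annotation. The 34204 intervals formed 23008 domains, of which 21846 were narrower than 4 kb. Of these, 3371 (15.4%, 95% Wilson interval 15.0 to 15.9) were promoter domains, and the other 18475 are called distal below. Only chromosomes 1 to 19 and X were used, in mm9.

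Splenic NKC of ICR mice were isolated by negative selection and, per the study's methods, sorted for DX5, then cultured for 7 days with 1000 units/ml of human recombinant IL-2, and fixed, before ChIP. The labels call the cultured cells all NKp46+, while the study's methods call nearly all of them so. Runx3 was immunoprecipitated in 2 libraries, H3K4me1 in 1 library, and non-immune serum (NIS) gave 2 control libraries. All groups carried the same IL-2 treatment, so nothing here compares activated with resting cells. The lists hold the position of each interval with no height, score or value per library. Depth cannot be read from them, no value has a replicate error, and the p-values below are over regions, which are not replicates of the condition.

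H3K4me1 is the single methylation of lysine 4 of histone H3. It is laid down over enhancers and over the flanks of active promoters, while the nucleosomes nearest an active start usually carry the trimethylated form in its place. Many mammalian promoters lie in CpG islands, short stretches rich in C, G and unmethylated CpG dinucleotides, and many tissue-restricted genes start outside such islands. Runx3 is a transcription factor of the RUNX family, which binds DNA at TGYGGY and works in NKC and CD8 T cells.

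The promoter domains covered genes of NKC receptors, chemokines and transcription factors. For 7 such genes, the sequence around a RUNX motif in a Runx3 peak that overlapped the domain is shown. The stretches of Xcl1 and Klf2 lie in the Runx3 peak but outside the domain. Each is 61 bases of mm9 around the motif nearest the centre of the Runx3 peak, 5′ to 3′ on the strand that reads TGYGGY, with the motif in capitals.
Klra1, chr6:130337061-130337121, minus strand: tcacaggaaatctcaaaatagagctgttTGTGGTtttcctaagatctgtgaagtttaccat
Ccl3, chr11:83462970-83463030, minus strand: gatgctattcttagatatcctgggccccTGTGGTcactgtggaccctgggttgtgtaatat
Xcl1, chr1:166865848-166865908, plus strand: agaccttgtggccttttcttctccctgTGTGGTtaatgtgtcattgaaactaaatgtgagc
Ifngr2, chr16:91546503-91546563, minus strand: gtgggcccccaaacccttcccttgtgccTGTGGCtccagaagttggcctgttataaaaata
Tox2, chr2:163029338-163029398, minus strand: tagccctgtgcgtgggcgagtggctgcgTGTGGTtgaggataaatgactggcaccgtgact
Klf2, chr8:74842781-74842841, minus strand: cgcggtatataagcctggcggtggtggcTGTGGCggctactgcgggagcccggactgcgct
Bach2, chr4:32326980-32327040, minus strand: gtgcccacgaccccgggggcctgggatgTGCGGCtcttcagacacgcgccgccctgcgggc

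The starts themselves were of very different base composition. To show the range, 120 bases upstream of the start are given for the Ly49 receptor gene Klra5 and for Irf1, an interferon-regulated transcription factor, on the strand of the gene and with each CpG in capitals.
Klra5, chr6:129867669-129867788, minus strand: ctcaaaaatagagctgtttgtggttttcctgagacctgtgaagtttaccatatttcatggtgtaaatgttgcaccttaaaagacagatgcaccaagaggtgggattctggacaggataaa
Irf1, chr11:53583396-53583515, plus strand: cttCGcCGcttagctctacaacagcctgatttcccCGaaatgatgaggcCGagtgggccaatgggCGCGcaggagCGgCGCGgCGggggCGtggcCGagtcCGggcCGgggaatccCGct
The Klra5 stretch holds 0 CpG and the Irf1 stretch holds 15.

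Promoter domains were narrow. Their median width was 719 bp (25th to 75th percentile 538.5 to 1169 bp, range 180 to 3970 bp), against 808 bp (557 to 1516.5 bp) for distal domains. Most, 2766, were a single interval, and 496 were made of 2, 93 of 3, 14 of 4 and 2 of 5 intervals. A domain of 2 or more intervals was less frequent at promoters, 605 of 3371 (17.9%) against 5030 of 18475 distal domains (27.2%), an odds ratio of 0.585 (two-sided Fisher's exact test, p 1.57e-31). Narrower domains have less room for a gap, and 69.1% of promoter domains and 59.8% of distal domains were under 1 kb wide. Between 1 and 2 kb of width the shares of joined domains were 42.0% and 51.1% (odds ratio 0.693, p 6.29e-06). Under 1 kb (odds ratio 0.701, p 0.233) and from 2 to 4 kb (odds ratio 0.728, p 0.0899) the difference did not pass 0.05.

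At the edges of the rule, the widest promoter domain spanned 3970 bp (chr11:115267030-115270999, at C920011F04Rik) and the narrowest one left out by width 4022 bp. The centre farthest from a start lay 1000.0 bp away and the nearest one left out 1000.5 bp. A further 100 domains centred within 1 kb of a start were 4 kb or wider and were not members.

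The nearest start belonged to a protein-coding gene for 2922 of the 3371 domains (86.7%), to a processed transcript for 152, to a lincRNA for 116, to a pseudogene for 46 and to a miRNA for 40. A further 35 domains lay at immunoglobulin or T cell receptor gene segments. The annotation lists 95414 transcript starts, many of them inside genes, and 1660 domains (49.2%) had the outermost start of a gene as their nearest start. Counted over the start positions of protein-coding genes, 29.8% of the 6181 starts with a domain were outermost starts, against 32.1% of the 63837 other starts (odds ratio 0.895, Fisher's exact test, p 0.000121). Several of these starts can share a domain or a gene, and the test counts each start as independent. The centres of 923 domains (27.4%) lay in exons, of 1469 (43.6%) in introns and of 979 (29.0%) between genes. Domains per 100 protein-coding genes ranged from 8.66 on chromosome 13 to 23.1 on chromosome 11 among the autosomes. Chromosome X had 9 domains, or 0.966 per 100 genes.

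The position of the start in or beside the domain is bounded by the distance the rule allows and by the domain widths, and is given as a description. The nearest start was inside an interval in 1471 domains (43.6%, 42.0 to 45.3), in the gap between joined intervals in 161 (4.78%) and outside the domain in 1739 (51.6%). With centres within 500 bp of a start, 67.4% of domains had the start in an interval. Among the 605 joined domains, the start fell in a gap in 161 (26.6%) and in an interval in 387 (64.0%). Tcf7, which encodes the transcription factor TCF-1, had a domain of 3320 bp made of 3 intervals, and its start at an inner promoter lay in an interval 13.5 bp downstream of the domain centre. At Lat, which encodes an adaptor of antigen receptor signalling, and at Il12rb2, a chain of the IL-12 receptor, the start lay in a gap. The domain centre was downstream of the nearest start in 1754 domains and upstream in 1616, a share of 52.0% downstream (exact binomial test, two-sided, p 0.0183). The call was lost with a join gap of 500 bp (p 0.0762), with protein-coding transcripts only (p 0.287) and with starts on one strand only (p 0.0631).

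Domains at CpG-rich starts were placed differently from the rest. A start was called CpG-rich when the 1 kb window around it had a GC content of at least 50% and an observed-to-expected CpG ratio of at least 0.6. By this rule 1204 domains (35.7%) had a CpG-rich nearest start and 2167 did not. The CpG-rich starts lay inside an interval in 308 of 1204 domains (25.6%, 23.2 to 28.1), and the other starts in 1163 of 2167 (53.7%, 51.6 to 55.8). The centre lay within 500 bp of the start in 45.4% of domains at CpG-rich starts and 59.9% at other starts (odds ratio 0.557, Fisher's exact test, p 7.17e-16). The classes differed most in the innermost and the outermost 250 bp. Within 250 bp of the start lay 19.7% and 34.4% of the centres, between 250 and 500 bp 25.7% and 25.5%, between 500 and 750 bp 26.8% and 21.5%, and beyond 750 bp 27.7% and 18.6%. Domains at CpG-rich starts were also narrower, with a median width of 634 bp against 803 bp, and fewer were joined, 9.80% against 22.5%. Their nearest start was more often the outermost of its gene, 63.1% against 41.5%.

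**Figure D1:**
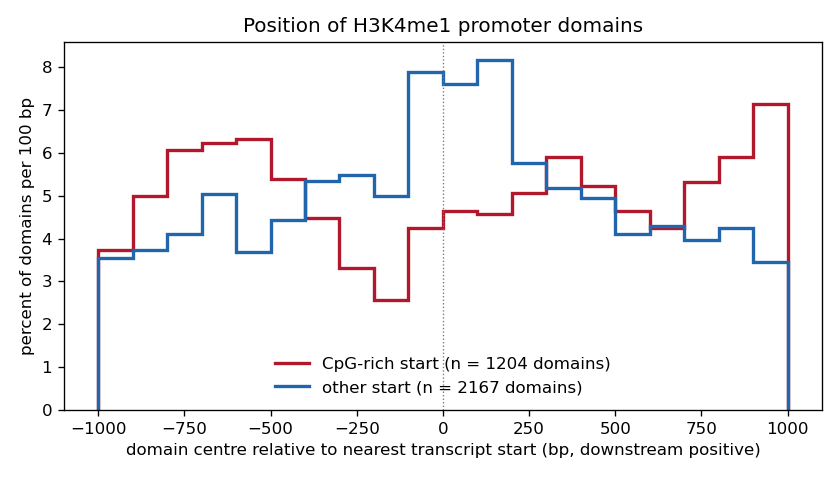
Position of the promoter domain centres relative to the nearest transcript start, in bp with downstream positive, as the percent of domains per 100 bp, for 1204 domains at CpG-rich starts (red) and 2167 at other starts (blue). Centres at other starts are most frequent near the start, and those at CpG-rich starts are fewest just upstream of it.

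The same dip was seen with intervals in place of centres, and also over all gene starts. At promoter domains with a CpG-rich start, 39.0% had an interval over the position 500 bp upstream of the start, 25.6% over the start and 37.5% over the position 500 bp downstream. At other starts the shares were 42.5%, 53.7% and 44.9%. Over all 9882 CpG-rich starts of protein-coding genes, with or without a domain, an interval covered the start in 1.91%, the position 1000 bp upstream in 5.44% and the position 1000 bp downstream in 6.50%. Over the 12467 other gene starts, the shares were 3.35%, 2.78% and 2.97%.

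**Figure D2:**
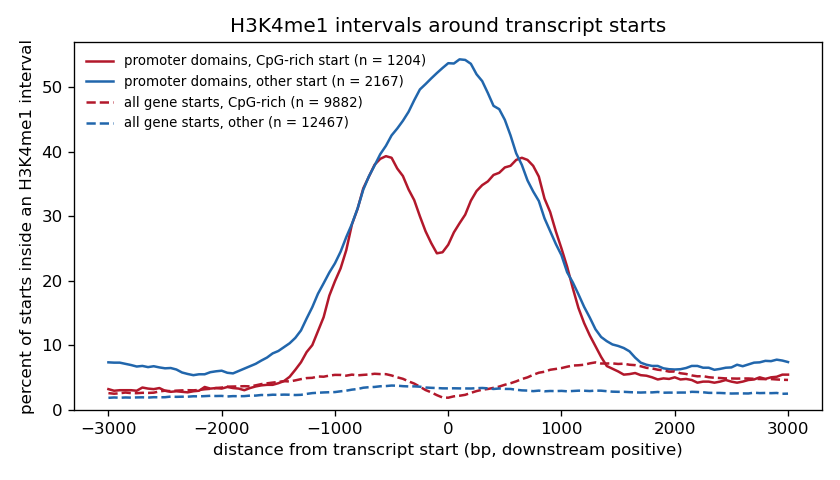
Percent of starts with an H3K4me1 interval over each position from 3 kb upstream to 3 kb downstream, for promoter domains (solid) and all protein-coding gene starts (dashed), CpG-rich in red and other in blue. Both red curves dip near the start, the solid one to 24.3% at 100 bp upstream and the dashed one to 1.91% at the start, and the solid blue curve peaks near it.

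Individual genes showed both placements. At Irf1, with a GC content of 65.5% and a CpG ratio of 0.914, the domain of 988 bp was centred 820.5 bp upstream of the start and did not reach it. At Lamp1, which encodes a lysosomal membrane protein exposed on degranulating NKC, a domain of 448 bp was centred 298.5 bp upstream of a start with a CpG ratio of 0.823, and the start was outside it. The same was true of Relb (offset -328.0 bp) and Klf2 (offset -386.5 bp), a pair of transcription factors with CpG-rich starts. At starts poor in CpG, the domain of Ccl3, which encodes the chemokine MIP-1α, was centred 54.0 bp downstream of the start and that of Il21r, the IL-21 receptor, 56.0 bp downstream of an inner start, and both starts lay in the interval. There were exceptions in each class. The CpG-rich starts of Nfatc2 and Il6ra lay in an interval, and the CpG-poor start of Tnf was 764.0 bp from a domain centre that lay upstream.

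Protein-coding gene starts with a domain were more often CpG-rich than starts with no H3K4me1 nearby, and less often than starts with H3K4me1 at a distance. Of the 22350 outermost gene starts, 1839 had a promoter domain centred within 1 kb, and 1049 of these (57.0%, 54.8 to 59.3) were CpG-rich. Of the 16559 starts that had no H3K4me1 interval within 5 kb and a known sequence, 6334 (38.3%) were CpG-rich, giving odds 2.14 times higher at starts with a domain (Fisher's exact test, p 1.39e-53). The latter set included 1441 olfactory, vomeronasal and trace amine receptor genes, against 2 among the starts with a domain, and without these genes the odds ratio was 1.85 (p 4.75e-35). Another 3951 starts had an interval within 5 kb, those of wider domains included, but no promoter domain, and 63.2% of these were CpG-rich, more than among starts with a domain (odds ratio of domain to this set 0.772, p 7.03e-06).

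A Runx3 peak lay within 1 kb of 18.7% of the gene starts with a domain, 24.2% of those with an interval within 5 kb only and 8.41% of those with none. The comparison of CpG-rich starts turned around when the gene starts were separated by Runx3, a separation made after seeing the data. Among starts with a Runx3 peak within 1 kb, 202 of 344 with a domain were CpG-rich (58.7%, 53.4 to 63.8) and 1184 of 1392 with no interval within 5 kb (85.1%, 83.1 to 86.8). The odds ratio was 0.250 (p 2.19e-24). Among starts without such a Runx3 peak, the shares were 847 of 1495 (56.7%) and 5150 of 15167 (34.0%), with an odds ratio of 2.54 (p 3.33e-65). The odds ratios differed from each other (Breslow-Day test, p 6.81e-69). Against starts with an interval within 5 kb only, the odds ratio was 0.432 with Runx3 (p 5.45e-10) and 0.911 without it (p 0.149).

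**Figure D3:**
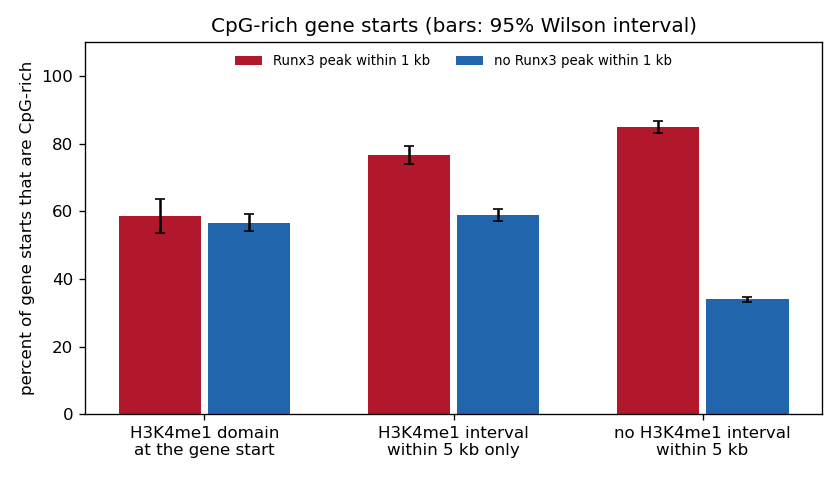
Percent of protein-coding gene starts that were CpG-rich, by H3K4me1 at or near the start, with a Runx3 peak within 1 kb (red) or without (blue), and 95% Wilson intervals as error bars. The bars are alike where a domain was present (58.7% and 56.7%) and far apart where no interval lay within 5 kb (85.1% and 34.0%).

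A Runx3 peak overlapped 466 of the 3371 promoter domains by at least 1 bp (13.8%, 12.7 to 15.0), fewer than the 3912 of 18475 distal domains (21.2%, 20.6 to 21.8). The odds ratio was 0.597 (two-sided Fisher's exact test, p 2.98e-24). Wider domains overlapped Runx3 more often, so the comparison was repeated by width. Under 1 kb the shares were 8.63% and 12.5% (odds ratio 0.660, p 6.24e-08), and from 1 to 2 kb they were 19.5% and 28.1% (odds ratio 0.620, p 8.99e-07). From 2 to 4 kb they were 38.2% and 43.7% (odds ratio 0.796, p 0.0601), and the odds ratios of the 3 classes did not differ beyond counting error (Breslow-Day test, p 0.258).

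**Figure D4:**
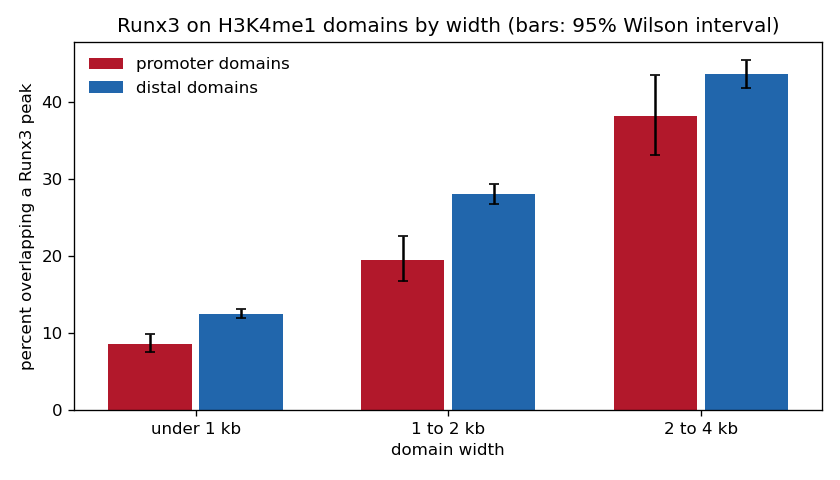
Percent of H3K4me1 domains that overlapped a Runx3 peak, by domain width, for promoter (red) and distal (blue) domains, with 95% Wilson intervals. Promoter domains are lower in each class, with intervals that do not meet under 2 kb and do meet from 2 to 4 kb.

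Within the promoter domains, Runx3 overlap was less frequent at CpG-rich starts, 120 of 1204 (9.97%), than at other starts, 346 of 2167 (16.0%). The odds ratio was 0.583 (p 9.15e-07). Within the width classes under 1 kb, 1 to 2 kb and 2 to 4 kb it was closer to 1, at 0.812, 0.795 and 0.702 (p 0.179, 0.371 and 0.347), and the Mantel-Haenszel odds ratio over these classes was 0.792 (p 0.049). These values count overlap with the domain, and domains at CpG-rich starts were centred farther from the start. With Runx3 peaks counted within 1 kb of the gene start, the classes were alike. Of gene starts with a domain, 58.7% of those with such a peak and 56.7% of those without were CpG-rich. Only 8 promoter domains overlapped more than 1 Runx3 peak. They included the domains at Cd244, which encodes the SLAM family receptor 2B4, and at Cd93, Tecpr1 and Cmah.

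Runx3 peaks on promoter domains were centred outside the domain more often than those on distal domains. Of the 474 such peaks, the centre was inside an interval in 228 (48.1%), in a gap in 54 (11.4%) and outside the domain in 192 (40.5%). For the 4057 Runx3 peaks on distal domains these shares were 57.4%, 15.7% and 26.9%, with an odds ratio of 1.85 for a centre outside the domain (p 1.77e-09). Narrower domains have less room for the centre of an overlapping peak. Promoter domains were narrower than distal domains (median 719 bp against 808 bp), and the Runx3 peaks on them were wider (median 739 bp against 715 bp). The comparison was not repeated by width, and the part of width in the difference was not tested. The centres on promoter domains lay a median of 274.75 bp from the nearest start, and 224 of 474 (47.3%) within 250 bp of it. Centres that were not in an interval lay within 250 bp of a start in 56.9%, against 36.8% of those in an interval (odds ratio 2.26, p 1.45e-05).

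Kinase and adaptor genes of lymphocyte receptor signalling had Runx3 centres both inside and outside the domain. At Txk, a Tec family kinase gene, the domain was centred 737.0 bp upstream of the start. Its Runx3 peak was centred 41.5 bp upstream, outside the domain. At Lat these distances were 371.5 bp and 55.5 bp upstream. The Runx3 centre lay inside the domain at Lat and at the outermost start of Lck. The domain of Xcl1, which encodes the chemokine lymphotactin, was centred 512.0 bp upstream of its start and the Runx3 peak 244.5 bp upstream. At Klf2, which encodes a regulator of lymphocyte trafficking, these distances were 386.5 bp and 85.5 bp. At both Xcl1 and Klf2 the Runx3 centre lay outside the domain. At Il21r, by contrast, the Runx3 centre lay 11.0 bp upstream of the inner start and inside the interval. At Cish, a cytokine-induced inhibitor of STAT5 signalling, the domain was centred 673.0 bp upstream and the Runx3 peak 528.0 bp downstream of the start.

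The RUNX letters under the Runx3 peaks differed between promoter and distal domains. In the central 200 bp, at least 1 RUNX motif was present in 77.8% of the 474 peaks on promoter domains and 79.5% of the 4057 on distal domains, and in the whole peak in 97.9% and 96.7%. TGTGGT was in 46.6% of the former (42.2 to 51.1) and 60.8% of the latter (59.3 to 62.3), with an odds ratio of 0.564 and an adjusted p of 6.25e-09. TGCGGT was in 18.4% and 7.79% (odds ratio 2.66, adjusted p 2.01e-11), and TGCGGC in 11.6% and 4.09% (odds ratio 3.08, adjusted p 5.14e-10). TGTGGC was in 31.9% and 34.4% (odds ratio 0.893, 95% interval 0.729 to 1.09, adjusted p 0.283). Windows of the same length at all gene starts held TGTGGT in 10.1%, TGTGGC in 13.2%, TGCGGT in 5.57% and TGCGGC in 13.3%. TGCGGC was thus in the central 200 bp of 11.6% of the Runx3 peaks on promoter domains and in 13.3% of gene starts in general. Each of the other forms was above its level at gene starts. The TGCGGC printed above from Bach2 lay 205.0 bp from the Runx3 centre, outside the window counted. Both strands were searched, and the adjustment was over the 4 forms.

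In the domains without Runx3, the RUNX, ETS and AP-1 motifs were counted in the central 400 bp on both strands. ETS (MGGAAR, the motif of factors such as Ets1) was in 71.7% of the 2905 promoter domains and 76.4% of the 14563 distal domains (odds ratio 0.783, Fisher's exact test, adjusted p 1.71e-07). AP-1 (TGASTCA, the motif of Fos and Jun dimers) was in 7.57% and 12.5% (odds ratio 0.572, adjusted p 6.57e-15). RUNX was in 61.8% and 62.6% (odds ratio 0.963, 95% interval 0.888 to 1.05, adjusted p 0.378). Windows of 400 bp at all gene starts held RUNX in 59.3%, ETS in 74.2% and AP-1 in 4.96%. The promoter windows were richer in GC, with a median of 54.0% against 49.75%. With domains compared within classes of GC content, the odds ratios were 0.872 for RUNX (p 0.00164), 0.820 for ETS and 0.597 for AP-1.

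Genes of NKC function had promoter domains at varied rates. Among all 22350 protein-coding genes, 2868 (12.8%) had a promoter domain centred within 1 kb of any of their starts, and 403 (1.8%) had one that overlapped a Runx3 peak. Lists of genes were read against these shares, by counts with no test. The signalling list had a domain at 30 of 76 genes (39.5%), the cytokine and chemokine receptor list at 16 of 50 (32.0%), the cytotoxic and effector list at 11 of 42 (26.2%), the transcription factor list at 17 of 71 (23.9%) and the NK receptor list at 9 of 47 (19.1%). A gene with more annotated starts has more chances of a domain, and the signalling genes had a median of 4 starts against 2 over all protein-coding genes. Cytosolic ribosomal protein genes, which also had a median of 4 starts, had a domain at 11 of 81 (13.6%), near the background. The part of the number of starts in the differences between lists was not tested. Housekeeping genes had one at 2 of 20 and HOX genes, which pattern the body axis, at 6 of 39.

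**Figure D5:**
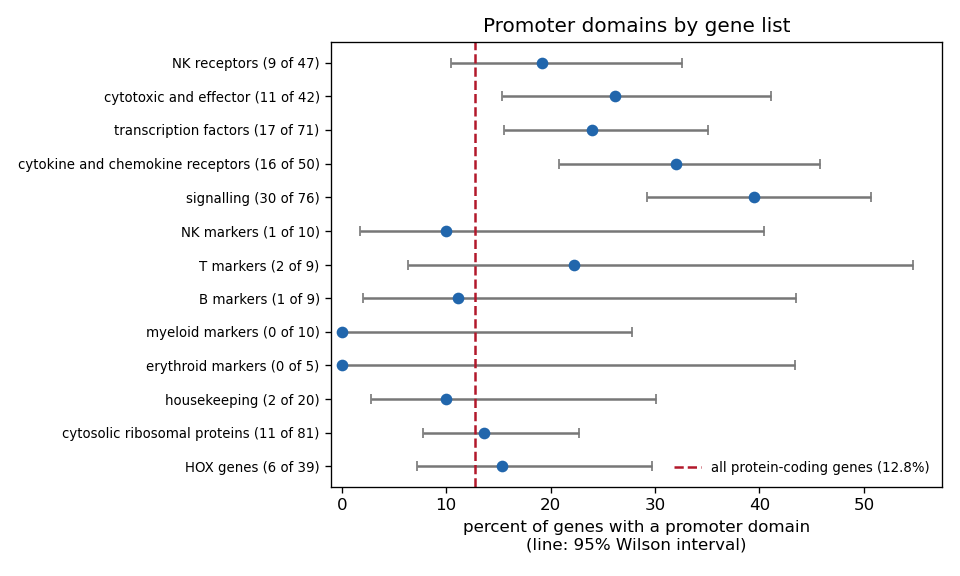
Percent of the genes of each list with an H3K4me1 promoter domain at any start, with 95% Wilson intervals, and the share of all protein-coding genes as a dashed line at 12.8%. The 5 lists of NKC function are drawn at the top, from 19.1% to 39.5%, and the marker and control lists below them.

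Among the NK receptor genes, Klra1, Klra5, Klrb1f, Cd244, Cd96, Fcgr3, Fcer1g, Itgam and Pilra had a promoter domain, and those of Klra1 and Cd244 overlapped Runx3. Klra1 and Klra5 encode lectin-like receptors of the Ly49 family and Klrb1f a receptor of the NKR-P1 family. The Klra1 domain (chr6:130336804-130337738) was 935 bp wide, covered the start and overlapped a Runx3 peak centred 197.5 bp upstream of it. The Klra5 domain was 269 bp wide, was centred 665.0 bp upstream of the start and overlapped 0 Runx3 peaks. The stretches printed above share 26 identical bases, aaaatagagctgttTGTGGTtttcct, and 45 of 51 bases when aligned without gaps around them. Reads were kept only where they aligned to a single place, and of the 40-base words in these domains 88.8% at Klra1 and 90.9% at Klra5 occurred once in the chromosomes used, against a median of 100% over all 3371 domains. The printed Klra5 stretch lies outside its domain, and the share of unique words in that stretch was not computed. Fcgr3 encodes the Fc receptor CD16 and Fcer1g its signalling chain, and their domains were 396 and 547 bp wide.

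Of the cytotoxic and effector genes, Gzmk, Ccl3, Ccl4 and Xcl1 had promoter domains with Runx3, and Tnf, Lta, Ccl9, Stxbp2, Lamp1, Serpinb6b and Serpinb1a had domains without it. Ccl3 and Ccl4 are neighbouring chemokine genes on chromosome 11. The Ccl4 domain was made of 2 intervals and was 1896 bp wide, and its Runx3 peak was centred 217.0 bp upstream of the start. At Ccl3 the Runx3 peak was centred 49.0 bp upstream. At Gzmk, which encodes granzyme K, the domain lay 789.5 bp and the Runx3 peak 1372.5 bp upstream. Neither Tnf nor Lta, the adjoining cytokine genes on chromosome 17, had Runx3 on its domain.

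The transcription factor genes with a domain were Id3, Tox2, Gata3, Ikzf1, Irf1, Irf8, Stat5a, Stat5b, Tcf7, Bach2, Klf2, Jund, Fos, Nfkb1, Nfkb2, Relb and Nfatc2. Runx3 overlapped those of Tox2, Bach2, Klf2 and Nfkb1. Stat5a and Bach2 each had 2 domains at separate starts. At Bach2, which encodes a repressor of lymphocyte effector differentiation, the one at a CpG-rich start (ratio 0.996) overlapped Runx3 and the one at a CpG-poor start (ratio 0.25) did not. In all, 241 protein-coding genes had 2 or more promoter domains. Gata3, a regulator of lymphoid development, had a domain of 1393 bp made of 2 intervals at an inner start.

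Receptors of cytokines with domains and Runx3 were Il21r, Ifngr2, a chain of the interferon-γ receptor, and Tnfrsf9, which encodes 4-1BB. Ifngr2 had a CpG-rich start in the gap of a 2314 bp domain, with a Runx3 peak centred 739.5 bp upstream, and a second domain of 496 bp without Runx3 at an inner start. At Tnfrsf9 the domain was centred 899.5 bp downstream of an inner start. Of the signalling genes, Lck, a kinase of the T cell and NKC receptor pathways, had 2 domains of 3877 and 1687 bp, and the narrower one, at the outermost start, overlapped Runx3. Dok2, which encodes an adaptor that restrains signalling, had a domain of 1872 bp with Runx3.

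Defining markers of cell types were read against the 12.8% of all protein-coding genes with a promoter domain and the 25.9% (5790 of 22350) with an H3K4me1 interval within 5 kb of the gene start. Of 10 NK markers only Fcgr3 had one, and 6 had an interval within 5 kb. Of 9 T cell markers Cd5 and Cd6 had one (4 with an interval within 5 kb), and of 9 B cell markers Ebf1 (2 with an interval within 5 kb). Of 10 myeloid markers 0 had one and 2 had an interval within 5 kb, and of 5 erythroid markers 0 had either. The cells were sorted for DX5, a marker of NKC, per the study's methods. The part of other cell types in the domains was not tested.

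A group of domains lay at antigen receptor gene segments, which B and T cells rearrange to make antibodies and T cell receptors, and which were singled out after the data were seen. Of the 35, 25 were in the Igh locus of the antibody heavy chain (chr12:114511358-117238672), 24 of them at V segments, of which the annotation lists 112 there. Among all protein-coding genes, 12.8% had a promoter domain at any start, and the segments were not tested against this share. The 25 domains were 374 to 1885 bp wide with a median of 599 bp. The start lay in the interval in 21 of 25, against 43.6% of all promoter domains. Runx3 overlapped 11 of the 25 (44.0%), against 453 of the 3336 promoter domains away from receptor segments (13.6%). The locus held 41 intervals in all, of which 28 lay within 1 kb of a segment, and 25 Runx3 peaks. Ighv1-5 (chr12:115750956-115752188), Ighv1-9, Ighv1-12, Ighv8-11 and Ighv8-12 were among the segments whose domain overlapped Runx3. Each of these Runx3 peaks held at least 2 RUNX motifs. Of all Runx3 peaks on promoter domains 97.9% held at least 1, and the share with at least 2 was not counted. The Igk locus of the light chain had 0 intervals over 99 V segments and Igl had 0. In the T cell receptor loci, Trb had 6 domains, 2 of them with Runx3 (at Trbv1 and Trbv15), the joint Tra and Trd locus had 3, at Trav17, Trdj2 and Gm17012 and without Runx3, and Tcrg had 1.

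Sequence similarity among the V segments bears on these calls. Over the 25 Igh domains the median share of 40-base words found once was 81.1%, with a range of 35.5% to 100%, and it was under 50% at 2 of them. Over the 10 domains at other segments the median was 100%. The reads came from ICR mice and the genome sequence from another strain, and the part of strain differences in the locus was not tested.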

How the data were processed

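Per the labels, reads of 40 bases from splenic NKC of ICR mice were aligned to mm9 with ELAND. The authors used reads with a single alignment, joined the reads of repeats, and let MACS call intervals over NIS after scaling the bigger set down. The deposited lists hold positions in bp, with 34204 intervals for H3K4me1 and 11676 for Runx3, and neither counts nor scores.

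Starts counted from 0 were changed to start from 1. Gene models came from GENCODE M1, and bases from its NCBIM37 genome, which is mm9. The paper names RefSeq genes. The distance of a domain is that of its centre to the nearest start, and the outermost start is the most upstream one of a gene. Fisher's exact test was two-sided throughout, and the 95% Wilson intervals cover counting error alone. Sides were compared with an exact binomial test, and strata with Mantel-Haenszel and Breslow-Day tests. Benjamini-Hochberg adjustment was over the 3 motifs or the 4 RUNX forms. Odds ratios compare the group named first with the second.

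The members and gene lists were chosen with earlier results of these data known, among them the RUNX forms in Runx3 peaks near and far from starts and the overlap of Runx3 with H3K4me1 there. The comparisons of domain distance and Runx3 between CpG-rich and other starts, the separation of gene starts by Runx3, the receptor segments and the count of unique words were chosen after seeing the data. Named genes were those with a domain in the NK receptor, cytotoxic and transcription factor lists, up to 6 of each other list (Runx3 first, then width), the 5 widest domains and the 5 with most Runx3 peaks. Not all of them are described, and 1 is not reported here. Klrh1, Zfp683 and Syk were not matched in the annotation. The overlap step with Fisher's exact test and the motif search were checked on simulated data. Interval joining and the Benjamini-Hochberg adjustment were checked on small examples. The binomial, Mantel-Haenszel and Breslow-Day tests were not checked in this way. The tools were statsmodels 0.14.6, scipy 1.17.1, pysam 0.24.0, pandas 2.3.3, numpy 2.4.6 and matplotlib 3.10.9 under python 3.11.15.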

Additional observations from a re-analysis of the deposited data

Results flagged for a closer look

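The odds that a protein-coding gene start was CpG-rich, for starts with a promoter domain against starts with no H3K4me1 interval within 5 kb, went in opposite directions at starts with a Runx3 peak within 1 kb (odds ratio 0.250) and at starts without one (odds ratio 2.54). The odds ratios differed in a direct test of the difference (Breslow-Day test, p 6.81e-69), which is over gene starts and not over libraries, and the separation was chosen after seeing the data.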

How the results depend on the processing

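Promoter domains were recomputed with other join gaps, start distances, start sets, overlaps, interval filters, motif windows and sequence thresholds. Of 124 alternative values of the comparisons, 107 kept their direction and their side of the threshold, or moved by less than the limit set for counts and shares. The odds ratio of Runx3 overlap stayed between 0.489 and 0.672 over 9 alternatives, that of joined domains between 0.460 and 0.684 over 6, and that of centres within 500 bp at CpG-rich starts between 0.510 and 0.558 over 6. The excess of downstream centres was weak. It was 51.5% with a join gap of 500 bp (p 0.0762), 51.1% with protein-coding transcripts only (p 0.287) and 51.7% with starts on one strand only (p 0.0631). The share of domains with the start in an interval was 47.8% without joining, 67.4% with a start distance of 500 bp, 36.7% with protein-coding transcripts only and 47.6% with intervals under 500 bp removed. A start distance of 500 bp left 1845 domains and 1585 protein-coding genes with a domain, took the odds ratio of outermost starts to 0.925 (p 0.064), and turned those of the RUNX motif (1.05, p 0.372) and TGTGGC (1.01, p 0.945), neither of which had passed the threshold. Without joining, the RUNX motif was at 1.01 (p 0.888). In whole domains it was at 0.876 (p 0.0106) and within GC classes at 0.872 (p 0.00164), both past the threshold. The odds ratio of CpG-rich starts turned to 0.772 (p 7.03e-06) against starts with an interval within 5 kb only, and to 0.250 (p 2.19e-24) at starts with a Runx3 peak. The cause of these changes was not tested. Of 78 alternative counts for gene lists, 13 moved. The counts ranged from 5 to 12 for NK receptors, from 4 to 15 for cytotoxic and effector genes and from 12 to 35 for signalling genes. Over all 22350 protein-coding genes the count moved too, from 1585 to 3254. With intervals under 500 bp removed, 5 of 47 NK receptor genes had a domain against 2389 of all genes, a like share. With a start distance of 500 bp, 4 of 42 cytotoxic and effector genes and 12 of 76 signalling genes had one against 1585 of all genes.

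No paired analysis was possible because the Runx3 peaks were called on joined reads and neither list holds values per library. Leaving out a library was not run for the same reason. The lists hold no scores, so in place of a stricter peak threshold the intervals under 500 bp were removed, with the 47.6% given above. They give no depth, and an interval that was not called is not shown to be absent at the depth of 1 H3K4me1 library.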
